A study of Mus musculus with 12 samples.

Results

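The genes described here are 52 developmental transcription factors other than Hox genes, taken by symbol from the homeobox, Pax, Forkhead, Gata, T-box and basic helix-loop-helix (bHLH) families. All 52 had probes on the array, 67 in all, and 50 of them were among the 31064 genes tested. En1 and Neurod1 were too dim to test. The choice went by gene names and used no measured value of any sample, but it was made with earlier results of these data known. The cells were colonies grown in culture from the labial cervical loop, the epithelial stem cell niche of the mouse incisor, with each array holding RNA of 1 colony. Colonies had 3 genotypes, with 4 colonies each, on a mixed genetic background: wild type, Bmi1 null, and Bmi1 null that also lacked Ink4a/Arf (double null). Bmi1 loss was thus common to both mutants, and the only labelled difference between the mutants was Ink4a/Arf, the locus named Cdkn2a that encodes 2 cell cycle inhibitors. The labels do not say how many animals gave the colonies, so each p-value measures the spread between colonies.

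Bmi1 is a subunit of Polycomb repressive complex 1, which binds chromatin marked by histone H3 methylation and keeps genes off. Genes for transcription factors that pattern the embryo, often with many CG dinucleotides in their promoters, are the classical targets of Polycomb complexes. Several members also act in tooth or skin: the Dlx genes and Barx1 pattern the jaw and its teeth, Pax9 is needed in dental mesenchyme for tooth development to pass the bud stage, and Gata3 guides epidermis and hair follicle lineages.

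A level below is the log2 of the scanner's processed signal of a gene's probe minus the 75th percentile of that array, so that a negative level lies under that percentile. Levels are compared between samples only within a gene. Bmi1 itself averaged -0.27 ± 0.46 (SD, n = 4) for wild-type colonies, -2.36 ± 0.15 for Bmi1 null colonies and -2.52 ± 0.21 for double null colonies. All 4 Bmi1 null arrays detected Cdkn2a well above background, and 0 of the 8 others did. The Bmi1 probe stayed well above background on all 8 mutant arrays, at -0.85 and -0.86 relative to the median change of all genes, while its other probe was above background on 4 wild-type, 1 Bmi1 null and 1 double null array. All 19 epithelial markers on the array were well above background on all 4 arrays of every genotype.

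The 4 wild-type arrays stood apart from the 8 mutant arrays over all genes. Their signals had an interquartile range of 2.49 to 2.62 on the log2 scale, against 4.32 to 4.69 for Bmi1 null arrays and 4.04 to 4.93 for double null arrays. Spearman's rho of the levels was 0.675 to 0.773 between wild-type and Bmi1 null arrays and 0.940 to 0.971 between arrays of the 2 mutants. Probes of olfactory receptor genes, which epithelium is not known to use, were well above background for 96.4% to 99.5% on wild-type arrays, 51.8% to 70.4% on Bmi1 null arrays and 49.0% to 71.7% on double null arrays. Of 875 olfactory receptor genes tested, 869 were called lower in Bmi1 null and 874 in double null than in wild-type colonies. These values touch every comparison with wild type below, and their part in the members' differences was not tested. For this reason the comparison of the 2 mutants is given first, and changes against wild type are also given relative to the median of all genes.

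Most members gave a signal in colonies of all 3 genotypes. On a wild-type array 48 to 51 of the 52 members were well above background (mean 49.8 ± 1.26 SD, n = 4), on a Bmi1 null array 38 to 42 (39.5 ± 1.91) and on a double null array 35 to 42 (39.0 ± 3.56). The same flag was set for 90.6% to 96.9% of all probes on wild-type arrays, 77.0% to 84.3% on Bmi1 null arrays and 74.4% to 87.4% on double null arrays. In all, 31 members were well above background on all 12 arrays. These were Barhl2, Emx1, Emx2, En2, Lhx2 and Otx1 of the head and forebrain genes, Cdx1, Evx1 and Evx2 of the posterior genes, and Nkx6-1. They also included Alx4, Barx2, Irx1, Six2, Dlx1, Dlx2, Dlx5, Dlx6, Pax2, Pax6, Pax9, Foxc1, Foxc2, Gata4, Gata6, Tbx2, Tbx3, Tbx5, Hand2, Neurog1 and Olig2. At the other end, 6 members were well above background on 0 of the 8 mutant arrays: En1, Hand1, Lmx1a, Neurod1, Nkx2-1 and Otx2. Of these, Hand1, Lmx1a, Nkx2-1 and Otx2 were above it on all 4 wild-type arrays, and En1 on none. No member was above background on more Bmi1 null or double null arrays than wild-type arrays. The 10 members that were tested through wild-type arrays alone, because they were above background on at least 3 arrays there and in neither mutant, were Alx1, Barx1, Foxa1, Gsc, Hand1, Lmx1a, Nkx2-1, Nkx2-2, Nkx2-5 and Otx2. A lower level in a mutant is built into that way of passing.

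**Figure D1:**
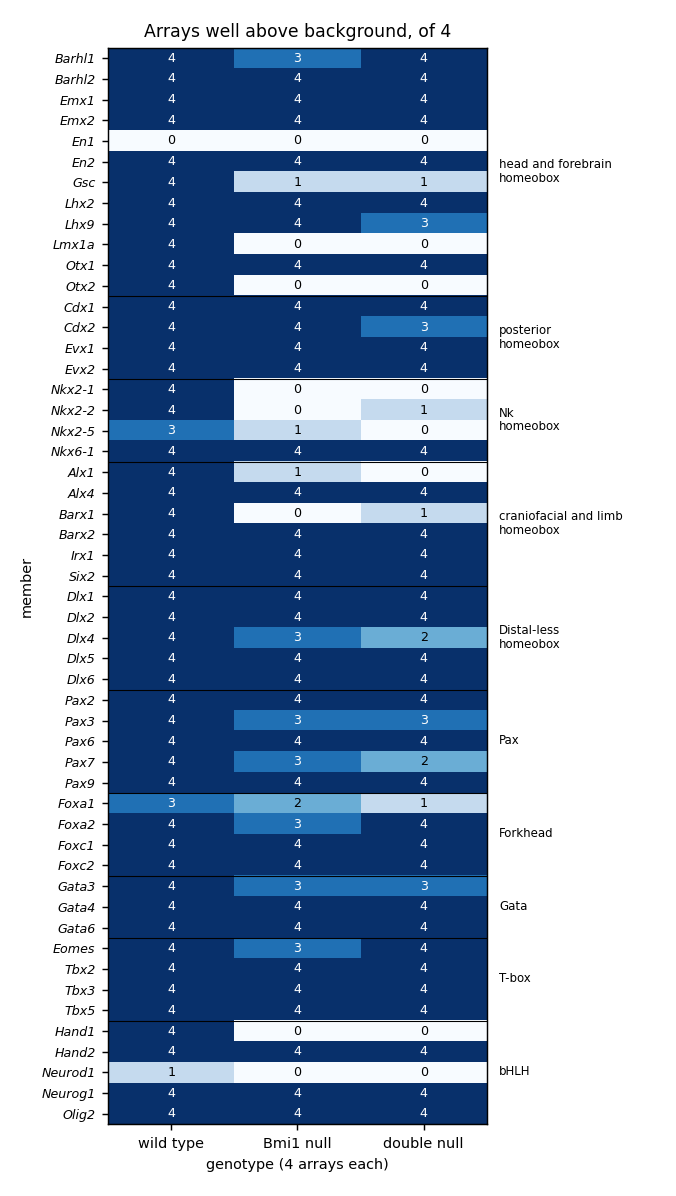
Number of arrays, of 4 per genotype, on which each of the 52 members was well above background, with one row per member grouped by family and one column per genotype. Most rows hold 4 in every column; Hand1, Lmx1a, Nkx2-1 and Otx2 hold 4 in wild type and 0 in both mutants.

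Promoters of the members are rich in CG dinucleotides, the sequence feature tied to Polycomb targets in general. The 250 bases before the gene start were read from RefSeq (build GRCm38.p6), which gave an entry for 34 of the 52 members. Where a gene had several starts, the start with the most CG dinucleotides was taken, for members and all genes alike. That choice can raise the counts of genes with more starts. The number of CG dinucleotides, a motif that reads the same on both strands, had a median of 19.5 (range 4 to 40) in these 34 and of 6.0 in 27025 genes. At least 10 were present in 79.4% of the members and in 40.2% of all genes. The 17 members above background on all 12 arrays had a median of 24.0, and the 17 above it on fewer arrays a median of 13.0. The letters TATAAA on either strand occurred in 8.82% of the members and in 12.5% of all genes. These are descriptions of sequence, and no binding of a Polycomb protein was measured. Shown are 3 promoters of genes that were higher in a mutant (Pax9, Foxc1 and Dlx2) and 3 of genes with large falls (Barx1, Emx1 and Lmx1a), 5′ to 3′ on the gene's own strand with each CG in capitals.
Pax9 (chr12:56695221-56695470, plus strand): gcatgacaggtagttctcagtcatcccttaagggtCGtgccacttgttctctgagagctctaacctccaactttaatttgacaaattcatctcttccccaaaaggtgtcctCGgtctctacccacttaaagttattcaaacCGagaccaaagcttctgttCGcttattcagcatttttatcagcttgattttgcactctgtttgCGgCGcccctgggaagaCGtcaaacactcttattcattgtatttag
Foxc1 (chr13:31806396-31806645, plus strand): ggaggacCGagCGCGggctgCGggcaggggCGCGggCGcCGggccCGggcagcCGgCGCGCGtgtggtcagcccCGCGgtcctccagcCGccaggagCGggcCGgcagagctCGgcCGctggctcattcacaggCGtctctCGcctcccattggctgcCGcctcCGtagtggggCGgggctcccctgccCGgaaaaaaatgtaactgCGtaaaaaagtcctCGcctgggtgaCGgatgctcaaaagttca
Dlx2 (chr2:71546755-71547004, minus strand): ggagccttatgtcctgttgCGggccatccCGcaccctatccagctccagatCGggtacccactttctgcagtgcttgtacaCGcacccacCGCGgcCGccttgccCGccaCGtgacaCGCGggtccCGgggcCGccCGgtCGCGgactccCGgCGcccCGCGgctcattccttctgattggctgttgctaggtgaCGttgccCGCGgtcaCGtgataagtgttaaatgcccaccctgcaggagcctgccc
Barx1 (chr13:48662786-48663035, plus strand): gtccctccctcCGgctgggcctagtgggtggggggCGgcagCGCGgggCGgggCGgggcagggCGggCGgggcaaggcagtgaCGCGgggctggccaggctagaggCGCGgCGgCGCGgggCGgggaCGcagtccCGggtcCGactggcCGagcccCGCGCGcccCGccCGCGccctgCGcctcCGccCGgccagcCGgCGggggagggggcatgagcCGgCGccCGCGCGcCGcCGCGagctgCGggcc
Emx1 (chr6:85187681-85187930, plus strand): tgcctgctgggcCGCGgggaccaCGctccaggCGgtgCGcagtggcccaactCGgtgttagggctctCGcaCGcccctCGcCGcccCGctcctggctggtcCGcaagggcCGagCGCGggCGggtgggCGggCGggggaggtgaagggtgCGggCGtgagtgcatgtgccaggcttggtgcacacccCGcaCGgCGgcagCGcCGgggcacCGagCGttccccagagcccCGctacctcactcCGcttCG
Lmx1a (chr1:167689308-167689557, plus strand): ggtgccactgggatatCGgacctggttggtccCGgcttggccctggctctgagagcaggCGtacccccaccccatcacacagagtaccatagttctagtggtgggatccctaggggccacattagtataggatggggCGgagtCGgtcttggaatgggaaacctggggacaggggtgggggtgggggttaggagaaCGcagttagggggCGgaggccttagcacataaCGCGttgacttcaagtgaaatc
The Pax9 window held 7 CG dinucleotides and the Lmx1a window 9, against 24 for Dlx2, 29 for Foxc1, 30 for Emx1 and 40 for Barx1. Windows with few and with many CG dinucleotides were thus found both among the genes that were higher and among those that were lower.

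Loss of Ink4a/Arf on top of Bmi1 went with a higher level of 2 members, Pax9 and Foxc2, and a lower level of 0. With limma and an adjusted p under 0.05, 2.81% of all tested genes were called higher with both loci lost than with Bmi1 lost alone, and 4.62% were called lower. At an unadjusted p under 0.05, limma gave 4 members higher (also Barx1 and Lhx9) and 5 lower (Dlx2, Dlx4, Emx1, Foxa1 and Nkx2-5). No share of all genes at that threshold is given here, so nothing is drawn from these counts. Some of these genes lay near background. Barx1 was well above it on 0 Bmi1 null arrays and 1 double null array, Nkx2-5 on 1 and 0, and Foxa1 on 2 and 1. Apart from Pax9 and Foxc2, the other 48 tested members were not called at the adjusted threshold, which does not show that they were alike. The median change of the members was 0.07 after taking off the all-gene median, -0.06. The levels of the 2 groups of colonies did not overlap for 3 members, Pax9, Foxc2 and Emx1, against 13.8% of all genes.

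Pax9, a paired box factor of the tooth and palate mesenchyme, was at -1.81, -2.34, -2.72 and -2.34 in the 4 Bmi1 null colonies and at -1.12, -1.01, -1.35 and -0.70 in the 4 double null colonies. Every double null colony lay above every Bmi1 null colony and above the wild-type colonies, which were at -1.85, -2.01, -1.86 and -2.15. The log2 fold change, double null over Bmi1 null, was 1.26 ± 0.22 (SE; limma adjusted p = 0.00554). The call was made under all 4 scalings tried, as for 1.51% of all genes (2.04% were called lower that way), and was lost with the slide as a block (1.40, limma adjusted p = 0.0700). Within the slides that held both mutants the difference was 0.99 on slide 2 (1 colony of each) and 1.81 on slide 3 (1 Bmi1 null and 2 double null colonies).

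Foxc2, a Forkhead factor of mesenchyme and vessels, was at -0.64, -1.33, -0.80 and -1.22 in Bmi1 null and at -0.61, 0.22, 0.58 and -0.22 in double null colonies. The lowest double null colony lay just above the highest Bmi1 null colony. The log2 fold change was 0.99 ± 0.26 (SE; limma adjusted p = 0.0388). It was 1.01 with the slide as a block (limma adjusted p = 0.213), 1.91 within slide 2 and 0.38 within slide 3, and the call was also lost under quantile normalization, which called 1.69% of all genes higher. The call was lost too with normexp background correction (0.82, limma adjusted p = 0.0553), with the replicate block and in a fit of these 2 genotypes alone. It was also lost without Bmi1 null colony 2, 3 or 4 or without double null colony 2 or 3. In all, Foxc2 was called under 9 of 19 alternatives, with changes of 0.79 to 1.19 and limma adjusted p-values of 0.0124 to 0.213.

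Falls of members in double null against Bmi1 null colonies were not called. The largest were those of Dlx4 and Foxa1. Foxa1 changed by -1.59 and was well above background on 2 Bmi1 null arrays and 1 double null array. Dlx4, a Distal-less gene, was at -4.68, -4.18, -5.99 and -4.96 in Bmi1 null and at -5.74, -7.50, -7.47 and -5.51 in double null colonies, a log2 fold change of -1.60 ± 0.48 (SE; limma adjusted p = 0.0635). It was well above background on 3 Bmi1 null arrays and 2 double null arrays. Without Bmi1 null colony 3, double null colony 1 or double null colony 4 it was called lower, at -1.95, -1.87 and -1.95. The direction was not stable: the difference was -3.29 within slide 2 and 0.36 within slide 3, and it was 0.36 with normexp background correction. Emx1, a cortex factor, fell short of the threshold with a small change of -0.43 ± 0.19 (SE; limma adjusted p = 0.215) although its groups did not overlap.

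**Figure D2:**
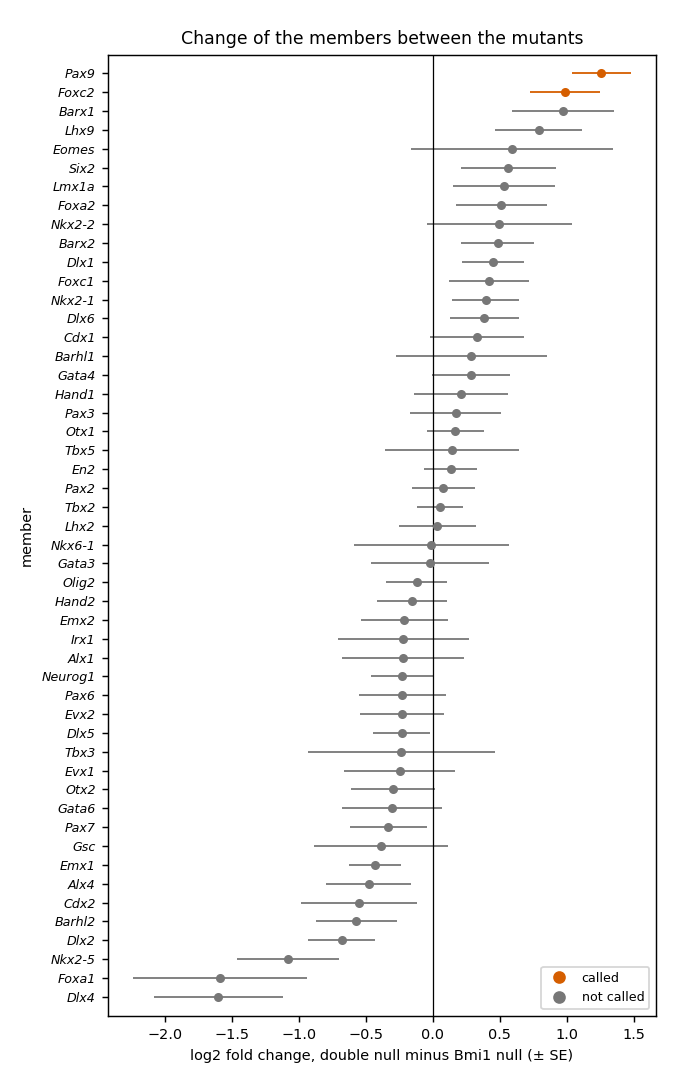
Log2 fold change of the 50 tested members, double null minus Bmi1 null, with 4 colonies per genotype, points for the fitted value and bars for ± 1 SE, ordered by value. Pax9 (1.26) and Foxc2 (0.99), drawn in orange, are the called members, and Dlx4 (-1.60) has the lowest value.

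Against wild type, most members were lower in both mutants, and 3 (Bmi1 null) or 4 (double null) were higher. Both comparisons use the same 4 wild-type arrays, so that their similarity is no separate evidence. Comparing Bmi1 null colonies, 3 members were called higher (Barx2, Dlx2 and Foxc1), 42 lower and 5 neither (Dlx5, Foxc2, Gata6, Irx1 and Pax9). Of all tested genes 25.2% were called higher and 58.3% lower. The colonies of these groups did not overlap for 42 members, against 80.1% of all genes. In double null colonies 4 members were called higher (Barx2, Foxc1, Foxc2 and Pax9), 40 lower and 6 neither (Dlx1, Dlx2, Dlx5, Gata6, Irx1 and Six2), where 25.7% of all genes were called higher and 59.7% lower. Here 43 members did not overlap, against 81.3% of all genes. The lower calls in each mutant include all 10 members tested through wild-type arrays alone, whose fall is part of how they passed. These members also enter the medians below. The median of all genes lay at -1.24 for Bmi1 null and at -1.39 for double null colonies, which is the shift that scaling to the 75th percentile leaves. Under quantile normalization that median lay at -0.14 and -0.13, and in the authors' table at -0.08 and -0.07, so that a gene's place relative to all genes also depends on the scaling. Relative to the medians of -1.24 and -1.39, the members' median was -0.85 in each mutant. With the members that no array of that mutant detected set to the smallest fall that the background allows, that median was -0.77 for Bmi1 null and -0.60 for double null colonies.

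Scaling decided a good part of these calls. Counting only calls made the same way under 4 scalings (75th percentile, median, quantile normalization and the authors' own table), a count chosen after the values were seen, 3 members were higher and 24 lower in Bmi1 null colonies, against 21.8% and 29.3% of all genes. In double null colonies 4 were higher and 24 lower, against 22.4% and 29.6%. Both sets of 24 include Alx1, Barx1, Lmx1a, Nkx2-2 and Otx2, which were tested through wild-type arrays alone. Scaling to the median gave 6 members higher and 29 lower for Bmi1 null colonies (37.0% and 41.6% of all genes), and 7 and 30 for double null colonies (36.8% and 42.6%). Quantile normalization gave 9 and 33 (33.9% and 38.4%), then 7 and 33 (34.1% and 38.7%). From the authors' table the counts were 6 and 33 (33.5% and 38.2%), then 8 and 32 (33.8% and 38.5%). Within single slides, 37 of the 50 members lay below the all-gene median on slide 1 and 39 on slide 2 for Bmi1 null, and 31 on slide 2 for double null colonies.

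**Figure D3:**
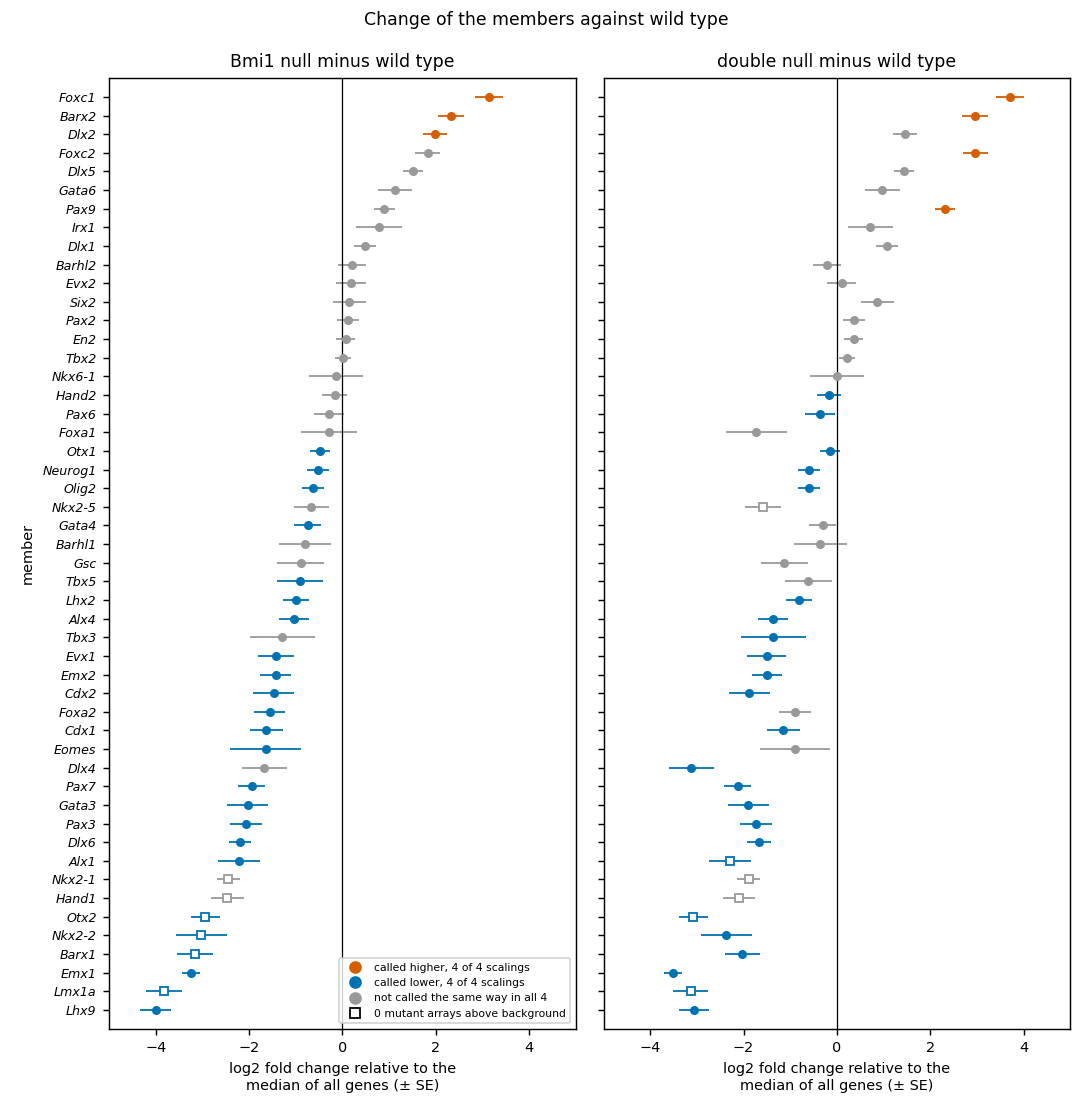
Log2 fold change of the 50 tested members relative to the median of all genes, Bmi1 null minus wild type at left and double null minus wild type at right, with points for fitted values and bars for ± 1 SE (4 colonies per genotype). Orange and blue mark members called higher or lower under all 4 scalings, and open squares mark members above background on 0 arrays of that mutant, whose plotted value is no measured fold. Foxc1 and Barx2 lie highest at left, and Lhx9 and Lmx1a lowest.

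Among the Forkhead genes, Foxc1, a regulator of mesenchyme and of epithelial stem cell quiescence, had the largest relative rise. It was at -3.18, -2.86, -3.66 and -3.98 in wild type, at -1.36, -1.36, -1.27 and -2.07 in Bmi1 null and at -1.74, -0.80, -0.88 and -0.97 in double null colonies. No mutant colony overlapped the wild-type range. The log2 fold change was 1.90 ± 0.30 (SE; limma adjusted p = 7.02e-05) in Bmi1 null and 2.32 ± 0.30 (limma adjusted p = 1.21e-05) in double null colonies, or 3.14 and 3.71 relative to all genes. Foxc2 was at -1.48, -1.43, -1.75 and -1.67 in wild-type colonies, below every mutant colony. It was called in double null (1.57 ± 0.26, limma adjusted p = 0.000103) and missed the threshold in Bmi1 null colonies (0.59 ± 0.26, limma adjusted p = 0.0528). Foxa1 and Foxa2, pioneer factors of endoderm, were called lower in both mutants, Foxa1 after passing through wild-type arrays alone. Foxa2 was well above background on 4 wild-type, 3 Bmi1 null and 4 double null arrays, and Foxa1 on 3, 2 and 1.

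Barx2, a homeobox gene of surface epithelia and muscle, was higher in both mutants, while its relative Barx1, a marker of molar mesenchyme, was lower. Barx2 was at -0.47, 0.14, -0.74 and -0.25 in wild type, at 0.86, 1.14, 0.81 and 0.21 in Bmi1 null and at 0.68, 1.65, 1.38 and 1.24 in double null colonies. The wild-type and mutant ranges did not overlap. Its log2 fold change was 1.09 ± 0.28 (SE; limma adjusted p = 0.00262) and 1.57 ± 0.28 (limma adjusted p = 0.000156), and all 3 of its probes had positive values in both comparisons. Barx1 was at -2.98, -2.96, -2.24 and -1.60 in wild-type colonies and was well above background on 0 Bmi1 null arrays and 1 double null array. Its wild-type level was at least 9.15-fold higher than in Bmi1 null colonies, where "at least" sets a dim probe to the lowest signal that counts as well above background. Relative to the all-gene median that bound is 3.88-fold. No p-value is given for the members tested through wild-type arrays alone, since their fall is part of how they passed.

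The Distal-less genes, which pattern the jaw in nested pairs, did not share a direction. Dlx2 was at -4.18, -4.29, -3.69 and -3.83 in wild type and at -3.14, -3.84, -3.30 and -2.75 in Bmi1 null colonies, with a log2 fold change of 0.74 ± 0.25 (SE; limma adjusted p = 0.0153) although the lowest Bmi1 null colony lay within the wild-type range. In double null colonies, at -3.62, -3.79, -4.18 and -4.16, it was not called (0.06 ± 0.25). That result depended on the processing: Dlx2 was called there under 3 of 19 alternatives, with changes of -0.05 to 2.76 over all 19. The Bmi1 null rise became -0.14 after another background correction (normexp). Its partner Dlx1 was at -1.02, -0.54, -1.04 and -1.08 in wild type and at -1.52, -1.92, -1.82 and -1.47 in Bmi1 null colonies. It was called lower there (-0.76 ± 0.23, limma adjusted p = 0.00881), yet it lay 0.48 above the all-gene median and the sign turned with median scaling (0.18) and in the authors' table (0.16).

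Of Dlx5 and Dlx6, a linked pair with shared enhancers, Dlx6 fell and Dlx5 was not called. Dlx5 was at -1.85, -2.33, -1.67 and -2.39 in wild type, at -1.85, -1.76, -1.54 and -2.0 in Bmi1 null and at -2.32, -1.87, -2.04 and -1.86 in double null colonies. It was not called against wild type, and relative to all genes it lay at 1.51 and 1.43. The missing call held only for part of the processing choices: 3 of 19 alternatives called Dlx5 in each mutant. Over all 19 its change was 0.03 to 1.59 (Bmi1 null) or -0.17 to 1.44 (double null). Dlx6 was at 0.51, 0.50, 0.53 and 0.35 in wild type and at -2.52, -3.03, -2.95 and -3.39 in Bmi1 null colonies, far below the wild-type range. It was at -2.37, -3.08 and -2.31 in the 3 double null colonies that gave a value, since 1 spot was an outlier and was left out of the fit. Its log2 fold change was -3.44 ± 0.24 (SE; limma adjusted p = 1.80e-07) and -3.06 ± 0.26 (limma adjusted p = 6.37e-07). The difference between Dlx5 and Dlx6 in response was not tested. Dlx4 changed by -2.91 ± 0.48 and -4.52 ± 0.48 against wild type and was called lower in both mutants.

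**Figure D4:**
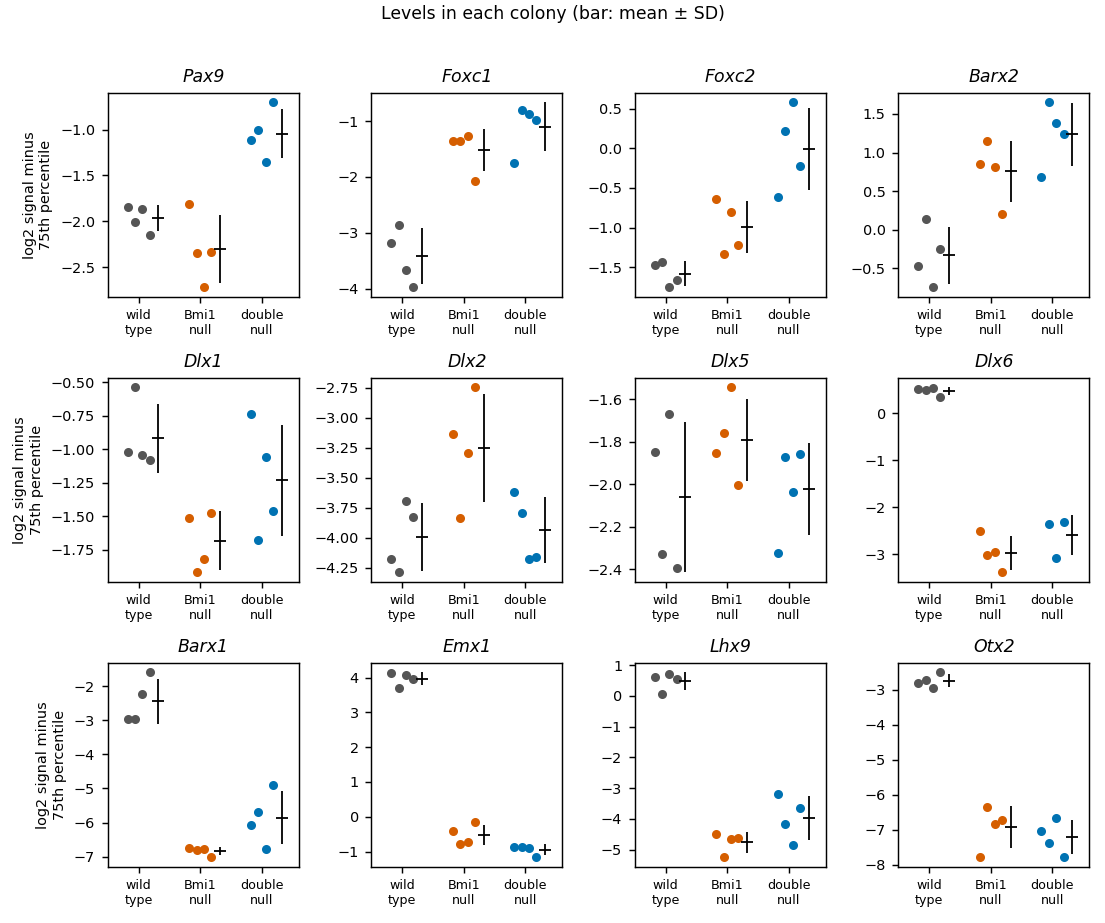
Level (log2 signal after subtracting the 75th percentile of its array) of 12 members in each of the 4 colonies of each genotype, with dots for colonies and a bar for the mean ± SD, each panel on its own axis (Dlx6 has 3 double null values). Pax9 is highest in the double null colonies, Foxc1, Foxc2 and Barx2 are lowest in wild type, and Dlx6, Barx1, Emx1, Lhx9 and Otx2 are highest in wild type.

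All 11 head and forebrain genes tested were called lower in both mutants, Gsc, Lmx1a and Otx2 after passing through wild-type arrays alone. Of all tested genes 58.3% and 59.7% were called lower. In neither mutant were Barhl1, Barhl2, En2 and Gsc called lower under all 4 scalings. The relative medians of these 11 genes were -1.0 and -1.12, the latter being the value of Gsc. Those of the Nk genes were -1.55 and -1.74, and those of the posterior genes -1.45 and -1.33. Nkx2-1, Nkx2-2 and Nkx2-5 also passed through wild-type arrays alone, so that a fall is built into the Nk medians. Lhx9, a LIM homeobox gene of brain, limb and gonad, was at 0.62, 0.08, 0.71 and 0.54 in wild type, at -4.50, -5.25, -4.66 and -4.61 in Bmi1 null and at -3.18, -4.17, -4.85 and -3.66 in double null colonies. Its log2 fold change was -5.24 ± 0.32 (SE; limma adjusted p = 4.50e-08) and -4.45 ± 0.32 (limma adjusted p = 1.29e-07). Emx1 was at 4.13, 3.71, 4.06 and 3.97 in wild type, at -0.41, -0.77, -0.72 and -0.15 in Bmi1 null and at -0.87, -0.86, -0.89 and -1.17 in double null colonies. It stayed well above background on all 12 arrays while changing by -4.48 ± 0.19 (SE; limma adjusted p = 5.64e-09) and -4.91 ± 0.19 (limma adjusted p = 3.99e-09). Its paralog Emx2 changed by -2.67 and -2.89.

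Lmx1a, a roof plate and dopamine neuron factor, was at -2.13, -2.18, -2.22 and -2.32 in wild type and was well above background in neither mutant. Its wild-type level was at least 10.7-fold higher than in Bmi1 null and at least 9.63-fold higher than in double null colonies, or 4.54-fold and 3.66-fold relative to all genes. Otx2, the anterior head factor, gave bounds of at least 7.47-fold and 6.71-fold. Its paralog Otx1 changed by -1.71 ± 0.21 and -1.55 ± 0.21 on the probe that stands for it (relative -0.48 and -0.15) and by -3.04 and -2.54 on its other probe (relative -1.80 and -1.14). En2, Barhl2 and Lhx2 were called lower too. Relative to all genes Lhx2 lay at -1.0 and -0.81. En2 lay at 0.07 and 0.36, a direction that turned under quantile normalization (-1.18 and -1.07) and in the authors' table (-1.33 and -1.24). Barhl2 lay at 0.21 and -0.21, then at -1.18 and -1.69 under quantile normalization and at -1.39 and -1.98 in the authors' table.

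Of the Nk homeobox genes, Nkx2-2, a ventral neural tube and endocrine pancreas factor, was well above background on 4 wild-type arrays, 0 Bmi1 null arrays and 1 double null array. Its wild-type level was at least 9.24-fold higher than in Bmi1 null colonies. Nkx2-1, the lung and thyroid factor, gave at least 2.84-fold and 2.55-fold, which is at least 1.20-fold relative to all genes in Bmi1 null and gives no bound above 1 in double null colonies. Nkx6-1 was measured on all 12 arrays and was called lower in both mutants, with overlapping ranges: it was at 0.69, -1.41, 1.09 and -0.12 in wild type, at -0.77, -3.08, -0.87 and -0.54 in Bmi1 null and between -1.40 and -1.22 in double null colonies. These calls were not stable. They were made under 10 of 19 alternatives for Bmi1 null (limma adjusted p = 0.00647 to 0.504) and under 7 of 19 for double null colonies (limma adjusted p = 0.00593 to 0.586), and were lost under median scaling (-0.44 and -0.36), quantile normalization and in the authors' table. For Bmi1 null the change was -1.87 to -0.79 when 1 colony was left out, and the call was lost without wild-type colony 1, 4 or 5 or Bmi1 null colony 2. For double null it was lost without any of these 3 wild-type colonies or any 1 double null colony, and the difference within slide 2 was 0.07.

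The posterior genes Cdx1, Cdx2, Evx1 and Evx2, which act in gut, tail and limb, were all called lower in both mutants. Under all 4 scalings this held for Cdx1, Cdx2 and Evx1. Cdx1 changed by -2.88 ± 0.35 and -2.55 ± 0.35, and Evx1 by -2.66 ± 0.38 and -2.90 ± 0.41, the latter from 3 double null colonies. Evx2 changed by -1.06 and -1.29, which is 0.18 and 0.11 relative to all genes, against -1.14 and -1.33 under quantile normalization.

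Among the Pax genes, Pax9 was the exception to a common fall. It was not called in Bmi1 null colonies (-0.34 ± 0.22, limma adjusted p = 0.168), where scaling to the median (0.60), quantile normalization (1.01) and the authors' table (0.61) turned the sign, and it was called higher in double null colonies (0.92 ± 0.22, limma adjusted p = 0.00164). Pax3 and Pax7, of neural crest and muscle precursors, changed by -3.30 ± 0.34 and -3.19 ± 0.29 in Bmi1 null and by -3.13 ± 0.34 and -3.52 ± 0.29 in double null colonies. Pax2, of kidney and eye, changed by -1.11 and -1.04 (0.12 and 0.36 relative to all genes, but -0.59 and -0.48 under quantile normalization). Pax6, an eye and brain factor, changed by -1.52 and -1.75 (-0.28 and -0.36 relative) on the probe that stands for it and by -5.01 and -5.77 (-3.77 and -4.37 relative) on its other probe, so that its probes disagreed on the size.

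The Gata factors split by gene. Gata3, a regulator of epidermis and hair follicle lineages, was at -0.81, -1.06, -0.94 and -1.44 in wild type, at -4.38, -5.60, -3.48 and -3.86 in Bmi1 null and at -4.23, -5.38, -4.15 and -3.66 in double null colonies, with no overlap. Its log2 fold change was -3.27 ± 0.44 (SE; limma adjusted p = 2.01e-05) and -3.29 ± 0.44 (limma adjusted p = 1.67e-05). Gata4, of heart and endoderm, changed by -1.98 ± 0.29 and -1.70 ± 0.29 on the probe that stands for it. Its other probe was fitted at -4.19 and -3.80, with signal well above background in all 4 wild-type colonies and in 0 mutant colonies. Gata6 was not called on the probe that stands for it (-0.11 and -0.42), but its other 2 probes changed by -1.86 and -2.27 in Bmi1 null colonies, and the mean of all 3 probes was called lower at -1.41 and -1.54, so that its probes disagreed.

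The T-box genes Tbx2, Tbx3, Tbx5 and Eomes were called lower in both mutants. Calls under all 4 scalings were made for Eomes and Tbx5 in Bmi1 null and for Tbx3 in double null colonies. Tbx2 was at 3.24, 3.0, 3.10 and 3.15 in wild type, at 1.69, 2.12, 1.86 and 1.89 in Bmi1 null and at 1.89, 2.15, 1.96 and 1.78 in double null colonies. Its changes of -1.23 ± 0.17 and -1.18 ± 0.17 were 0.01 and 0.22 relative to all genes. That place depended on the scaling, with relative changes of -2.0 in each mutant under quantile normalization and -2.25 in each in the authors' table. Tbx3, whose product acts with Tbx2 in limb and mammary epithelium, spread widely in double null colonies, from -4.17 to 0.40. Tbx5 changed by -2.15 ± 0.50 and -2.01 ± 0.50.

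The bHLH genes Hand1, Hand2, Neurog1 and Olig2 were called lower in both mutants, Hand1 after passing through wild-type arrays alone. All 4 scalings called Neurog1 and Olig2 lower in both mutants, and Hand2 in double null colonies. Hand2, a jaw and limb factor, changed by -1.41 ± 0.26 and -1.57 ± 0.26, Neurog1, a sensory neuron factor, by -1.77 ± 0.24 and -2.0 ± 0.24, and Olig2, of motor neurons and oligodendrocytes, by -1.87 ± 0.23 and -1.99 ± 0.23. Relative to all genes these were between -0.63 and -0.17, and under quantile normalization between -1.54 and -1.03. Of the remaining craniofacial and limb genes, Alx4 changed by -2.28 ± 0.32 and -2.76 ± 0.32, and Six2 by -1.10 ± 0.36 (called) and -0.53 ± 0.36 (not called). For Six2 the sign turned under quantile normalization (0.76 and 1.30) and in the authors' table (0.28 and 0.63). Irx1, an Iroquois homeobox gene, was not called (-0.46 ± 0.49 and -0.68 ± 0.49), with relative values of 0.78 and 0.72, and its sign turned under quantile normalization (0.65 and 0.58).

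Other genes of the same kind were measured as context. In a list of developmental transcription factors that are not members, 107 were tested: 6 were called higher and 92 lower with Bmi1 lost, 4 and 90 with both loci lost, and 0 and 1 between the mutants. The 1 was Msx2, a homeobox gene of tooth and skull, at -1.56 ± 0.32 (SE; limma adjusted p = 0.0131). The relative medians of that list were -0.69, -0.59 and 0.05, beside -0.85, -0.85 and 0.07 for the members. Of 35 Hox genes, 33 and 34 were called lower against wild type and 0 higher. Of all tested genes 25.2% and 25.7% were called higher against wild type and 58.3% and 59.7% lower. Between the mutants 2.81% were called higher and 4.62% lower. Of 28 tested genes of the Polycomb complexes, 16 were called higher and 5 lower in each mutant against wild type, and 1, Phf1, was called lower in double null against Bmi1 null colonies (-0.83 ± 0.20, limma adjusted p = 0.0272). The counts against wild type depended on the scaling. From the authors' table, 13 and 61 of the non-member list were higher and lower in Bmi1 null, and 13 and 60 in double null colonies. For the Hox genes these were 1 and 25, then 0 and 25, and for the Polycomb genes 21 and 6, then 21 and 4. Of all genes they were 33.5% and 38.2%, then 33.8% and 38.5%.

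Markers of other cells that a colony could hold moved with the same comparisons. All 19 tested immune markers and all 10 endothelial markers were called lower in both mutants than in wild type, as were 13 and 12 of 14 neural, glial and melanocyte markers. Of all tested genes 58.3% and 59.7% were called lower. With median scaling the counts were 15 and 17 (immune), 7 and 8 (endothelial) and 8 and 10 (neural), against 41.6% and 42.6% of all genes. From the authors' table they were 17 and 17, 7 and 8, and 8 and 9, against 38.2% and 38.5%. Their summed linear levels were 16.6 to 22.4 (immune), 5.48 to 7.11 (endothelial) and 25.7 to 37.6 (neural) for wild-type colonies. For Bmi1 null colonies the same sums were 3.03 to 3.84, 1.49 to 2.09 and 6.31 to 8.29, and for double null colonies 2.38 to 3.99, 1.34 to 1.95 and 6.24 to 7.43. The members themselves summed to 52.2 to 69.1 for wild type, 16.3 to 18.1 for Bmi1 null and 16.4 to 20.4 for double null colonies. Such sums weigh bright probes most, in wild-type members those of Emx1 and Tbx2 (mean levels 3.97 and 3.12), and do not describe each gene of a list. Epithelial markers summed to 220.1 to 551.2 for wild type, 788.8 to 1068.5 for Bmi1 null and 777.7 to 1361.5 for double null colonies. Mesenchyme and fibroblast markers summed to 42.5 to 64.1 for wild type, 85.5 to 128.1 for Bmi1 null and 99.7 to 193.1 for double null colonies. Of the 24 tested, 5 were called higher and 13 lower in Bmi1 null, and 4 and 12 in double null colonies, while Dspp, Dmp1 and Ibsp were above background on 0 arrays of either mutant. Between the mutants, Tagln (2.14 ± 0.35) and Zeb2 (0.90 ± 0.21) of that list and Epcam (1.73 ± 0.34), Cldn1 (1.41 ± 0.25) and Cldn7 (3.59 ± 0.32) of the epithelial list were called higher in double null colonies, as Pax9 and Foxc2 were, and Col17a1 (-1.43 ± 0.29) was called lower. The part of these other cells in the members' differences was not tested. Relative medians were -1.27 and -1.23 (immune), -0.85 and -0.53 (endothelial) and -0.82 and -0.79 (neural). Those of the olfactory receptor genes were -2.30 and -2.33. Fewer cells of a type, less RNA per cell and the way the wild-type arrays stood apart over all genes cannot be told apart in such samples.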

How the data were processed

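RNA of 12 single colonies, 4 per genotype, was amplified and labelled with the dye Cy3, and each sample was read on its own Agilent expression array (1 colour), per the labels' protocols. The authors deposited spot intensity values as written by Agilent Feature Extraction (background-corrected processed signal and flags), per the file headers, and a table of log2 values with no normalization named in the sources used here. Its array medians of 7.21 to 7.24 and correlations of 0.992 to 1.00 with the log2 spot signals show log2 scale and equal centring, and nothing more of how it was made. The median spot signal per array was 63.2 to 210, over a median background of 17.0 to 23.0, and the number of arrays limits the precision.

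Processed signals were scaled to each array's 75th percentile and put on the log2 scale, without control and outlier spots. Genes were kept if a probe was well above background on at least 3 of 4 arrays of a genotype, with the probe of the highest mean level standing for a gene. All 12 arrays entered 1 limma fit (limma 3.58.1, R 4.3.3) with moderated variances and Benjamini-Hochberg adjustment over 31064 genes, and calls were made at an adjusted p under 0.05. The fit was tested on simulated data. Relative changes subtract the median log2 fold change of all tested genes. Alternatives were median and quantile scaling, the authors' table, normexp on the median spot signal (offset 50), other filters, a floor, the mean of probes, replicate and slide blocks, fits of 2 genotypes and leaving out each colony.

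Genes given values were those called between the mutants, those well above background on all 12 arrays, and the 6 called members with the largest relative change in each direction against wild type, plus up to 3 called genes of each other list. Outside that rule, values of Gata3, Pax3, Pax7 and Nkx2-1 were added after they were seen. Members, lists and tests were chosen with earlier results of these data known.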

Additional observations from a re-analysis of the deposited data

Results flagged for a closer look

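Within each genotype, the highest or lowest of the 4 colonies stood far from the other 3 in 11 of 147 groups of member levels, where chance gives about 1 in 20. Colony 2 of Bmi1 null gave 4 of these, all low. There Eomes was at -6.37 (others -2.35 to -2.20), Tbx5 at -3.68 (others -1.23 to -1.01), Nkx6-1 at -3.08 (others -0.87 to -0.54) and Nkx2-2 at -7.81 (others -6.43 to -6.25), the last of which was not well above background on any of these 4 arrays.

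Wild-type colony 3 stood apart for Dlx1 at -0.54 (others -1.08 to -1.02), Foxa2 at -1.85 (others -2.05 to -2.02) and, low, Tbx3 at 0.72 (others 1.33 to 1.38). The other such values were Dlx6 at 0.35 in wild-type colony 5 (others 0.50 to 0.53) and Foxc1 at -2.07 in Bmi1 null colony 4 (others -1.36 to -1.27). In double null colonies Emx1 was at -1.17 in colony 4 (others -0.89 to -0.86) and Pax2 at -0.78 in colony 1 (others -1.75 to -1.61), an array with 1336 outlier spots against 55 to 132 on the other 11.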

How the results depend on the processing

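The number of members called against wild type was within 1.5 times of the reported 45 (Bmi1 null) and 44 (double null) under every alternative except the filter for signal on all 12 arrays, which tests fewer genes and gave 27 and 25. The members' relative median of -0.85 stayed below 0 throughout. In Bmi1 null it was -0.55 with normexp, -1.15 with quantile normalization, -0.69 in the authors' table, -1.07 with the filter on all 12 arrays, -1.02 with the mean of probes and -0.99 to -0.61 when 1 colony was left out. In double null it was -0.55, -1.19 and -0.76 for the first 3, -0.72 with no filter, -1.18 with the filter on all 12 arrays, -0.61 with a floor, -0.93 with the slide as a block and -0.87 to -0.72 when 1 colony was left out. Between the mutants, 1 member was called with normexp, quantile normalization, the replicate block or only these 2 genotypes, 0 with the slide as a block, and 1 to 3 when 1 colony was left out. The block used replicate numbers, which do not pair these colonies (same-numbered deviations correlated at -0.14 to 0.22), and neither count against wild type moved by over 1.5 times under it. Signs turned for single genes that were called before or after the change: in Bmi1 null, Cdkn2a with normexp (-0.15), Dlx1 with median scaling (0.18) and in the authors' table (0.16), Dlx2 with normexp (-0.14), Gata6 with quantile normalization (0.92), Pax9 with median scaling (0.60), quantile normalization (1.01) and the authors' table (0.61), and Six2 with quantile normalization (0.76) and the authors' table (0.28). In double null, they turned for Cdkn2a with quantile normalization (0.52) and the authors' table (0.13), Dlx1 with median scaling (0.72) and the authors' table (0.56), and Six2 with quantile normalization (1.30) and the authors' table (0.63). Where neither value was called, signs also turned, as for Irx1 (0.65 and 0.58) and double null Gata6 (0.71) with quantile normalization and double null Dlx5 with the slide as a block (-0.17). The cause was not tested. With the looser flag for a positive and significant signal, members per array averaged 51.5, 47.8 and 45.3 for wild type, Bmi1 null and double null. Signal over background limits the falls: 4 members shared the lowest value on the array of Bmi1 null colony 2 and 7 on that of double null colony 2, so their order there is unknown.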

Other observations

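The wild-type and Bmi1 null colonies on slide 2 were each the lowest of their genotype for 11 of the 50 tested members (Barhl1, Dlx2, Emx1, Eomes, Evx1, Evx2, Irx1, Lhx9, Nkx2-5, Nkx6-1 and Tbx5), against 9.74% of all tested genes. In all 3 genotypes the colony on slide 2 was lowest for 4 members (Dlx2, Eomes, Irx1 and Lhx9), against 1.96% of all genes, and for 0 of 50 was it over 1 log2 unit below the mean of the others in all 3. This pattern was looked for after the values were seen.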
